A study of Mus musculus with 18 samples.

Results

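The nuclear genes of the mitochondrial respiratory chain were followed through 18 mouse skin arrays. Members were taken by name alone: every probe set (the group of oligonucleotides that reports a transcript) whose annotated symbol starts with Ndufa, Ndufb, Ndufc, Ndufs, Ndufv, Sdh followed by a, b, c or d, Uqcr, Cox4 to Cox8, or Atp5, with pseudogenes left out. This gave 185 probe sets of 94 genes, of 45037 probe sets and 18193 genes in the table. Another 10 probe sets that the annotation ties to several symbols were left out. After a filter that kept probe sets with a mean log2 signal above 3.15 over all arrays, 172 member probe sets of 92 genes remained among 31526 tested. The probe sets that did not pass include the only ones of Ndufb4, an accessory subunit, and of Cox7b2, a form of a complex IV subunit known from testis.

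The skin came from female mice of a C57Bl6xCBA F1 background, 7 weeks old when treatment began. Transgenic mice carried K14NICDER, in which the keratin 14 promoter directs a Notch intracellular domain joined to a hormone-binding domain to basal keratinocytes, so that 4-hydroxytamoxifen (4OHT) can switch the protein on. Wild-type controls carried no transgene. Both genotypes were given 4OHT for 14 days, so no group shows skin without the drug. RNA was taken from epidermis, dermis or whole skin after storage in RNAlater and was amplified before labelling, with 3 arrays for each genotype in each of the 3 tissues. The labels do not say that the arrays of a group came from separate animals, so a p-value here weighs a difference against the spread among these arrays, which may be technical.

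The respiratory chain passes electrons from NADH and succinate to oxygen and stores the released energy as a proton gradient. Complex I (NADH dehydrogenase) and complex II (succinate dehydrogenase, also an enzyme of the citric acid cycle) feed electrons in. Complex III (the cytochrome bc1 complex) hands them to cytochrome c, complex IV (cytochrome c oxidase) hands them to oxygen, and complex V (ATP synthase) uses the gradient to make ATP. Most subunits are encoded in the nucleus and imported, and their genes are known for promoters that hold sites for the factors NRF1, GABPA and YY1. A few subunits exist in forms used in particular tissues, such as the heart and muscle forms of complex IV. In skin, mitochondria of the living epidermal layers are degraded as keratinocytes become cornified cells.

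By complex, the members comprised 34 genes of complex I on 76 probe sets, 4 genes of complex II on 9, 8 genes of complex III on 16, 19 genes of complex IV on 37 and 17 genes of complex V on 31. The name rule also took in 12 assembly factors on 16 probe sets, the Ndufaf and Sdhaf genes, whose products help to build complexes I and II and are not subunits. They are given apart wherever complexes are listed. Ndufa4, once counted in complex I, was placed in complex IV, where its product is now known to sit.

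Several arrays stood apart in the median log2 signal of the 172 tested member probe sets. In wild-type epidermis the medians were 8.10, 8.51 and 7.86 for replicates 1, 2 and 3. In transgenic epidermis they were 9.08, 8.68 and 8.64, all above the highest wild-type value. Wild-type dermis was tight at 8.40, 8.45 and 8.47, while transgenic dermis ranged widely at 8.96, 8.09 and 7.76. Whole skin was tight in both genotypes, at 8.68, 8.79 and 8.78 in wild type and 8.92, 8.81 and 8.91 in transgenic. The standard deviation of a typical member within a group (the median over members) was 0.41 in wild-type and 0.29 in transgenic epidermis, and 0.27 in wild-type and 0.61 in transgenic dermis. In whole skin it was 0.15 and 0.11, so the same change was easier to detect there. Medians over all tested probe sets lay between 5.60 and 6.05 on every array.

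**Figure D1:**
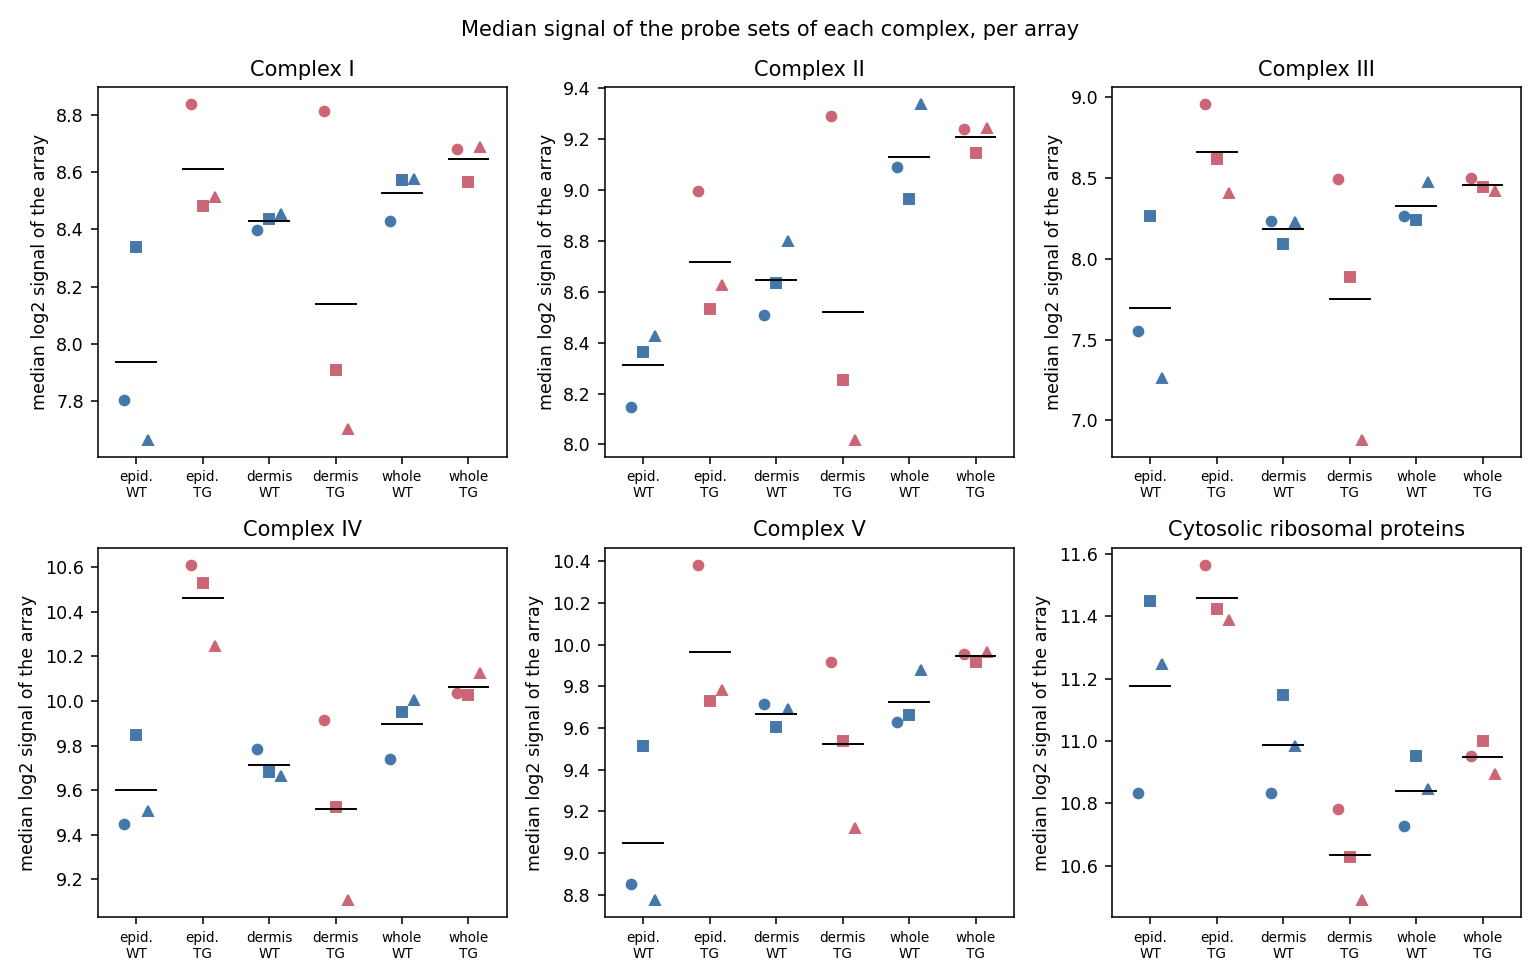
Median log2 signal of the tested probe sets of each complex on each of the 18 arrays, with cytosolic ribosomal protein genes for comparison. Blue is wild type (WT) and red transgenic (TG), circles, squares and triangles are replicates 1, 2 and 3, black lines are group means of 3 arrays, and the vertical axes differ between panels and do not start at 0. Complexes I to V are higher on the 3 transgenic epidermis arrays than on the 3 wild-type ones, while transgenic dermis spans the wild-type dermis values.

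The first comparison asked what 4OHT with the transgene changed in separated epidermis, the layer that expresses it. Respiratory chain signals were mostly higher in transgenic epidermis: 126 of 172 member probe sets (73.3%) had a fitted change above 0, against 38.8% of all tested probe sets. The median member change was 0.49 log2 units, against -0.20 for all probe sets. On 64 members (37.2%) every transgenic array was above every wild-type array, against a background of 8.27%, and on 3 members (1.74%) every transgenic array was below, against 14.7%. After adjustment over all tested probe sets, however, 1 member passed the threshold of 0.05 in limma, against a background of 1.49% in either direction and 0.923% for higher signal. Before adjustment, 66 members (38.4%) had p under 0.05, against 17.9% of all probe sets, 63 of them higher and 3 lower in transgenic epidermis. In bulk tissue, fewer cells of a type and less RNA per cell cannot be told apart.

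The median change was 0.51 for complex I (58 of 73 probe sets above 0), 0.48 for complex II (6 of 8), 0.83 for complex III (12 of 14), 0.33 for complex IV (21 of 32) and 0.78 for complex V (22 of 29). The assembly factors had a median of -0.02, with 7 of 16 above 0. No test set the complexes against each other. The groups were apart, with transgenic higher, for 26 probe sets of complex I, 3 of complex II, 5 of complex III, 13 of complex IV and 15 of complex V, and for 2 of the assembly factors.

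Members are brighter than most probe sets, and brighter probe sets as a whole leaned toward higher signal in transgenic epidermis. Among the 86 members with a mean above 8.43, the median of the members, 39 were higher on all transgenic arrays, and 17.1% of the 3911 probe sets at that level or above were so too, with a median change over those probe sets of 0.10. Among the 86 dimmer members, 25 were higher on all transgenic arrays, and 7.01% of the other 27615 probe sets were so. The median member change was 0.48 in the brighter part and 0.51 in the dimmer part.

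The member that passed was Uqcrq, which encodes a small subunit of complex III. Its probe set 1430326_s_at read 6.63, 7.47 and 6.40 on the wild-type arrays and 8.49, 8.27 and 8.21 on the transgenic arrays. The 2 groups did not overlap, and the fitted change was 1.49 (SE 0.31, adjusted p = 0.0417). The call was lost after quantile normalization (adjusted p = 0.0578) and without any single epidermis array other than wild-type replicate 2 (adjusted p = 0.102 to 0.205), while without that array the adjusted p was 0.0046. The other tested Uqcrq probe set, 1452613_at, was dim, at 3.56 to 5.27 on the epidermis arrays, and had a change of -0.53 with overlapping groups (adjusted p = 0.636). On 1430326_s_at the change was -0.25 in dermis (adjusted p = 0.99) and 0.23 in whole skin (adjusted p = 0.421).

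The subunits next in order of adjusted p were mostly of complex V, and they were chosen after their values were seen. Atp5j, coupling factor 6 of the ATP synthase stalk, read 8.85, 9.52 and 8.77 in wild type and 10.91, 10.18 and 10.10 in transgenic epidermis, a fitted change of 1.35 (adjusted p = 0.0504). Atp5mpl, a small membrane subunit of ATP synthase, read 6.80, 8.27 and 7.40 in wild type and 9.33, 9.15 and 8.78 in transgenic (change 1.60, adjusted p = 0.0511). Atp5md, also called DAPIT, another small membrane subunit, read 8.10, 10.20 and 8.54 in wild type and 11.13, 10.55 and 10.76 in transgenic (change 1.86, adjusted p = 0.0693). For each of these genes the second wild-type array lay nearest to the transgenic arrays, and the groups still did not overlap.

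The catalytic and electron-carrying subunits, followed by their brightest probe set, did not pass the adjusted threshold in epidermis. In complex I, Ndufv1, which binds NADH, read 8.82, 9.30 and 8.78 in wild type and 9.84, 9.64 and 9.40 in transgenic epidermis (change 0.66, adjusted p = 0.209). Ndufs1, the largest iron-sulfur subunit, Ndufs3, a subunit of the arm that passes electrons to ubiquinone, and Ndufs7, which holds the last iron-sulfur cluster, had changes of 0.34, 0.36 and -0.09, with overlapping groups. In complex II, the changes were 0.58 for Sdha, the flavin subunit that oxidises succinate, 0.23 for Sdhb, the iron-sulfur subunit, -0.06 for Sdhc and 1.25 for Sdhd, the 2 membrane anchors. In complex III, Uqcrc1 and Uqcrc2, the core proteins, had changes of 0.75 and 0.48, and Uqcrfs1, the Rieske iron-sulfur protein, 1.03 (adjusted p = 0.163).

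In complex IV, Cox4i1, the general form of a regulatory subunit, read 10.03, 10.61 and 9.89 in wild type and 10.87, 10.92 and 10.77 in transgenic epidermis (change 0.68, adjusted p = 0.202). The brightest probe sets of Cox5a and Cox5b, subunits that surround the catalytic core, had changes of -0.01 and 0.43. In complex V, Atp5b, the catalytic beta subunit, read 6.63, 8.88 and 7.59 in wild type and 10.55, 8.54 and 9.11 in transgenic, so that the groups overlapped (change 1.69, SE 0.57, adjusted p = 0.171). Atp5a1, the alpha subunit, had a change of -0.18. Atp5b was thus among the largest fitted changes and among the most variable members.

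Of 49 member genes with several tested probe sets, 24 had fitted changes of both signs in epidermis. In none of the main fits were probe sets of the same gene called in opposite directions. The 3 members that were lower on all transgenic epidermis arrays are all probe sets of Ndufs4, a complex I subunit that closes the assembly of its NADH-binding arm. They had changes of -1.23, -0.85 and -0.61, while the brightest Ndufs4 probe set changed by 0.47, so no direction can be given for the gene. When each gene was followed by its brightest probe set, 34 of 92 genes (37.0%) were higher on all transgenic arrays, against 10.6% of all 13739 genes so followed, and 0 were lower, against 12.3%.

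The adjusted count in epidermis depended on which arrays were in the fit. Without wild-type epidermis replicate 2, which had the highest member median of its group, 46 members (26.7%) were called, 43 higher and 3 lower in transgenic epidermis, against a background of 7.60%. The calls higher in transgenic comprised 14 probe sets of complex I, 2 of complex II, 6 of complex III, 5 of complex IV and 16 of complex V. The 3 calls lower were probe sets of Atp5k, Ndufb7 and Ndufa2, and no assembly factor was called. Atp5k was called in both directions in this limma fit. Its probe set 1434053_x_at changed by -1.43 (adjusted p = 0.0047) and 1422525_at by 1.19 (adjusted p = 0.015), so no direction can be given for the gene. Leaving out any other epidermis array left 0 members called, against backgrounds of 0.279 to 0.942%. When all 18 arrays shared an estimate of the spread, 15 members (8.72%) were called, all higher, against a background of 5.74%.

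Wild-type epidermis replicate 2 differed from its group in other genes too. The summed linear signal of 11 fibroblast and matrix markers was 10914 on wild-type epidermis replicate 2, against 6603 and 4772 on replicates 1 and 3, and 11088 to 17941 on the transgenic epidermis arrays. The list rose in part with the transgene, with 3 of 11 markers called higher (among them Col6a2 by 2.63 and Pdgfrb by 2.48) and 9 of 11 above 0. Of 8 basal keratinocyte markers 0 were above 0 (median change -0.56), and 2 were called lower, Krt15 by 3.66 and Col17a1 by 1.19. The summed signal of the 8 markers was 17463 to 23096 in wild type and 12123 to 12550 in transgenic epidermis. The sums of other marker lists were apart between the genotypes too. The summed signal of 8 macrophage markers was 1098, 1809 and 1111 in wild-type replicates 1, 2 and 3, against 1824 to 2438 in transgenic epidermis, with 6 above 0 and 0 called. That of 6 vascular smooth muscle markers was 242 to 388 against 538 to 757, with 3 of 6 above 0 and a median change of 0.01. Of these, Acta2 alone was called and rose by 2.58. The array medians of this list overlapped, at 5.23 to 6.08 in wild type and 5.25 to 5.71 in transgenic epidermis. The sum of 5 T cell markers was 634 to 808 against 351 to 504, with 1 above 0 and 0 called. The sums of differentiated keratinocyte, endothelial, skeletal muscle, adipocyte and mast cell markers overlapped. The brightest 1% of probe sets held 33.8, 22.9 and 30.8% of the signal on the wild-type arrays and 22.7, 26.1 and 22.6% on the transgenic arrays. The part of these differences in the respiratory chain result was not tested.

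**Figure D2:**
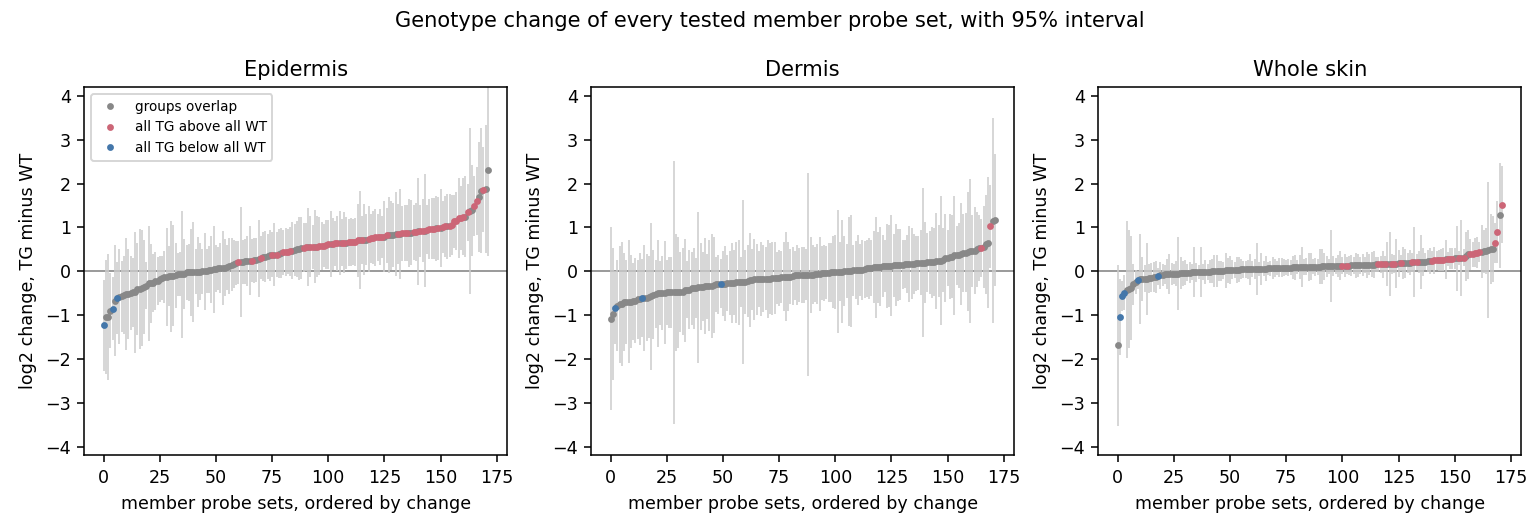
Fitted log2 change, transgenic minus wild type, of each of the 172 tested member probe sets in epidermis, dermis and whole skin, ordered within each tissue, with 95% intervals in grey (cut off at the edge of the panel where longer). Red points mark members whose 3 transgenic arrays all lie above the 3 wild-type arrays (64, 2 and 29 members) and blue points those that all lie below (3, 3 and 5 members).

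Genes around the chain gave a mixed picture in epidermis. Glycolytic enzymes, which make ATP and pyruvate in the cytosol, were called higher for 7 of 11 genes, with a median change of 1.23; Hk2 rose by 1.23, Pgk1 by 1.80 and Pkm by 1.18. Of 10 electron carriers and partners of the chain 0 were called, but 9 were above 0 with a median of 0.76, cytochrome c (Cycs) changing by 1.45 (adjusted p = 0.0845). Of 12 citric acid cycle genes 8 were above 0 (median 0.35, 0 called), of 76 mitochondrial ribosomal protein genes 52 (median 0.26, 0 called), and of 47 cytosolic ribosomal protein genes 26 (median 0.05, 0 called). Of 13 regulators of mitochondrial biogenesis 7 were above 0 (median 0.07, 0 called), with Ppargc1b at 0.90 and Ppargc1a at -1.72. A separate list of 21 assembly factors of all complexes had a median of -0.03, with 10 above 0 and 0 called. These lists were chosen with earlier results of the data known, and their counts are a description.

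The second comparison asked whether the dermis, which lies under the cells that express the transgene, differed between the genotypes. The dermis samples also held basal keratinocyte transcripts. The summed signal of the 8 basal markers was 13821 to 16348 in wild-type and 10671 to 12435 in transgenic dermis. The part of these transcripts in the comparison was not tested. In limma 0 of 172 members were called in dermis, against a background of 0.0222%, and 1 member (0.581%) had an unadjusted p under 0.05, against 3.91% of all probe sets. The median member change was -0.08, against -0.09 for all probe sets, and 66 members (38.4%) were above 0, against 41.6%. Transgenic dermis was higher on all arrays for 2 members (1.16%, background 3.09%) and lower on all arrays for 3 members (1.74%, background 6.04%). The medians were -0.12, -0.17, -0.25, -0.03 and -0.08 for complexes I to V, and -0.04 for the assembly factors, with 6 of 16 above 0. The wide spread of the transgenic dermis arrays limited the comparison: the typical standard error of a member was 0.37.

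Single genes show that spread. Atp5b read 9.53, 9.47 and 9.99 in wild-type dermis and 10.72, 8.37 and 7.80 in transgenic dermis. Uqcrfs1 read 8.16, 7.87 and 8.37 in wild type and 8.63, 7.81 and 6.14 in transgenic. The first transgenic array was thus at or above the wild-type range and the third far below it, and the groups overlapped. Among the general forms, Cox4i1 read 10.36, 10.76 and 10.26 in wild type and 10.48, 10.07 and 9.39 in transgenic dermis (change -0.48, adjusted p = 0.99).

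The difference between the genotype effects of the 2 layers was tested directly. In limma 0 members passed, and 0 of all 31526 probe sets did. The median difference, dermis minus epidermis, was -0.59 over the members, against 0.06 over all probe sets, and 40 members (23.3%) had an unadjusted p under 0.05, against 7.40% of all probe sets. Of these, 39 had the lower effect in dermis (22.7%, against 3.92%). Atp5md had the smallest adjusted p, with a difference of -2.39 (95% interval -3.75 to -1.03, adjusted p = 0.488). The epidermal change was therefore not shown to differ from that in dermis.

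The third comparison made the same contrast in intact whole skin. In limma 0 of 172 members were called, against a background of 1.56% (0.91% higher, 0.653% lower), and 26 had an unadjusted p under 0.05 (15.1%, against 15.5% of all probe sets). The changes were small but leaned upward: 130 members (75.6%) were above 0, against 46.7%, with a median of 0.10, against -0.02 for all probe sets. Without wild-type whole skin replicate 1, on which 63.4% of members read lowest of their group, the median fell to 0.04 and its excess over all probe sets from 0.13 to 0.05. All transgenic arrays were above all wild-type arrays for 29 members (16.9%, background 9.66%) and below for 5 members (2.91%, background 12.1%). Brighter probe sets as a whole were more often apart and higher here too. Among the 86 members with a mean above 8.43, 20 were higher on all transgenic arrays, against 19.3% of all probe sets at that level. Among the 86 dimmer members 9 were, against 8.30% of the dimmer probe sets. Of 47 cytosolic ribosomal protein genes, 40 were above 0 in whole skin, with a median of 0.10 and 0 called. Complex V had 27 of 29 probe sets above 0 (median 0.13), complex IV 25 of 32 (0.13), complex III 9 of 14 (0.15), complex I 53 of 73 (0.09) and complex II 6 of 8 (0.06). The assembly factors had 10 of 16 above 0 (0.03), with 0 apart and higher and 2 apart and lower in transgenic whole skin.

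The smallest adjusted p in whole skin belonged to probe set 1422525_at of Atp5k, the e subunit of ATP synthase, chosen after its values were seen. It read 8.77, 8.60 and 8.49 in wild type and 8.94, 9.15 and 9.08 in transgenic whole skin (change 0.44, SE 0.11, adjusted p = 0.0832). Cox6a1, the general form of a complex IV subunit, came next, with 10.51, 10.61 and 10.67 in wild type and 10.87, 10.85 and 10.97 in transgenic on probe set 1417417_a_at (change 0.30, adjusted p = 0.0863). Its groups were apart in epidermis too, at 11.24, 11.18 and 11.22 against 11.44, 11.74 and 11.41. The Atp5k probe sets disagreed in epidermis, where none was called. There 1422525_at changed by 0.88 and 1450640_x_at by 0.58, but the brightest, 1434053_x_at, by -0.90.

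Whole skin and epidermis were measured on different arrays, with their own controls. In both, 20 member probe sets were higher on all transgenic arrays, which is 31.3% of the 64 in epidermis and 69.0% of the 29 in whole skin. Over all probe sets, the shared part was 36.0% of the epidermis set and 30.8% of the whole skin set. These shares start from unlike rates, since 37.2% of members but 8.27% of all probe sets were apart and higher in epidermis. The 20 include Uqcrc1 (0.75 in epidermis, 0.39 in whole skin), Cox5a on probe set 1448153_at (0.56 and 0.31), Atp5mpl (1.60 and 0.43) and Atp5o, a stalk subunit of ATP synthase (0.95 and 0.25). In dermis the same 4 probe sets changed by -0.48, -0.02, -0.18 and -0.17. In whole skin, 2 of 11 glycolysis genes were called higher, Pfkl by 0.93 and Pgk1 by 0.62, while 0 of 10 electron carriers and partners were called. The summed fibroblast and matrix signal overlapped between the genotypes there, at 15771 to 17346 in wild type and 15006 to 18412 in transgenic.

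The fourth comparison set wild-type dermis against wild-type epidermis. The labels held in the marker genes: 9 of 11 fibroblast and matrix markers were higher in dermis (median 2.51) and 6 of 8 differentiated keratinocyte markers were lower (median -1.57). Basal keratinocyte markers were present in both, with 1 of 8 called lower in dermis (Krt14 by -1.14), so basal keratinocyte transcripts were measured in the dermis samples too. Of the members, 13 were called in limma (7.56%), against a background of 15.7%. In dermis 8 were higher (background 8.57%) and 5 were lower (background 7.12%). The groups were apart with dermis higher for 35 members (20.3%, against 17.2%) and with dermis lower for 11 (6.40%, against 22.6%). The median member change was 0.11, against -0.16 for all probe sets. That median was 0.03 without wild-type epidermis replicate 3, 0.18 without wild-type dermis replicate 3, 0.04 with no filter on low values, 0.19 after quantile normalization and 0.20 with 1 probe set per gene.

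Complex II had the largest median of the complexes, 0.70 with 4 of 8 probe sets apart and higher in dermis, and 2 of its 8 were called. The medians were 0.15, -0.03, -0.18 and 0.20 for complexes I, III, IV and V. For the assembly factors it was 0.20, with 10 of 16 above 0, 4 apart and higher in dermis and 0 called. Sdhd, a membrane anchor of succinate dehydrogenase, read 8.17, 10.16 and 8.97 in epidermis and 10.83, 10.38 and 10.65 in dermis, and was higher in dermis by 1.52 (SE 0.38, adjusted p = 0.0148). Sdha, the flavin subunit, read 8.91, 10.07 and 9.81 in epidermis and 11.08, 10.58 and 10.85 in dermis (1.24, SE 0.30, adjusted p = 0.0129). The second Sdhd probe set had a change of 2.09 (adjusted p = 0.055), and the others of Sdha had 0.41 and -0.37. Sdhb, on its only probe set, had a change of -0.20, and Sdhc had -0.10 on its brightest probe set and 0.98 (adjusted p = 0.282) on its other, all with overlapping groups. The subunits were not tested against each other.

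In complex V, Atp5md was higher in dermis by 1.80 (adjusted p = 0.0154), with 8.10, 10.20 and 8.54 in epidermis and 10.86, 10.68 and 10.71 in dermis. Atp5c1, the gamma subunit that turns inside the catalytic head, read 8.60, 10.04 and 9.08 in epidermis and 10.78, 10.43 and 10.91 in dermis (1.47, adjusted p = 0.02). In complex I, 2 of the 3 Ndufv1 probe sets were higher in dermis, by 1.17 (adjusted p = 0.0207) and 0.78 (adjusted p = 0.0498), and the third, 1415967_at, had a change of 0.37 with overlapping groups (adjusted p = 0.544). Ndufab1, the mitochondrial acyl carrier protein, was higher by 1.06 (adjusted p = 0.0432). In complex IV, Cox5b on probe set 1416902_a_at was higher by 0.90 (adjusted p = 0.0402). For all of these called probe sets the second wild-type epidermis array was the closest to dermis, and the groups did not overlap.

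The members lower in dermis were dimmer or were forms of a subunit with close relatives. Atp5g2, which encodes a form of the c subunit that makes up the rotating ring, read 7.04, 6.73 and 6.72 in epidermis and 5.13, 6.05 and 4.91 in dermis (-1.47, adjusted p = 0.0121). Ndufa4l2, a relative of Ndufa4 known as a hypoxia-induced gene, read 7.70, 6.47 and 6.42 in epidermis and 5.41, 5.89 and 5.09 in dermis (-1.40, adjusted p = 0.0278). Cox6a1 on probe set 1417418_s_at read 9.70, 9.69 and 9.55 in epidermis and 8.33, 9.23 and 8.52 in dermis (-0.95, adjusted p = 0.028). The other Cox6a1 probe set, 1417417_a_at, did not show this (0.01). Cox8a on probe set 1416112_at differed by -1.24 (adjusted p = 0.0488), while its other probe sets had changes of -0.80 and -0.33 that did not pass. Ndufa3 on probe set 1430149_at differed by -2.51 (adjusted p = 0.0493), from signals of 5.03, 4.99 and 4.09 in epidermis and 3.66, 0.78 and 2.14 in dermis, a range in which the deposited values scatter widely. Its brighter probe sets had changes of the other sign that did not pass, 0.44 for 1428464_at (adjusted p = 0.222) and 0.59 for 1452790_x_at (adjusted p = 0.162).

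The number of calls between the layers depended on single arrays. It was 31 without wild-type epidermis replicate 2 (background 18.3%) and 0 without wild-type dermis replicate 3 (background 7.31%). It was 2 and 7 without dermis replicates 1 and 2 (1.16 and 4.07%, against 9.53 and 10.5%), and 1 and 4 without epidermis replicates 1 and 3 (0.581 and 2.33%, against 8.87 and 8.76%). With all 18 arrays in the fit, 32 members were called (18.6%, against 26.9%). In none of these fits was the members' share above that of all probe sets. Around the chain, 2 of 10 electron carriers and partners were higher in dermis, the outer membrane channels Vdac3 by 1.25 and Vdac2 by 1.30. Of 13 biogenesis regulators, Tfam, which packages mitochondrial DNA, was higher by 1.25, and Esrra, a nuclear receptor known to act on chain genes, was lower, at -2.28. Of 12 citric acid cycle genes, Fh1 was higher by 1.66 and Sucla2 lower, at -0.87. Of 76 mitochondrial ribosomal protein genes 2 were higher and 0 lower, of 21 assembly factors 2 were higher and 1 lower, and of 11 glycolysis genes 0 were called.

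**Figure D3:**
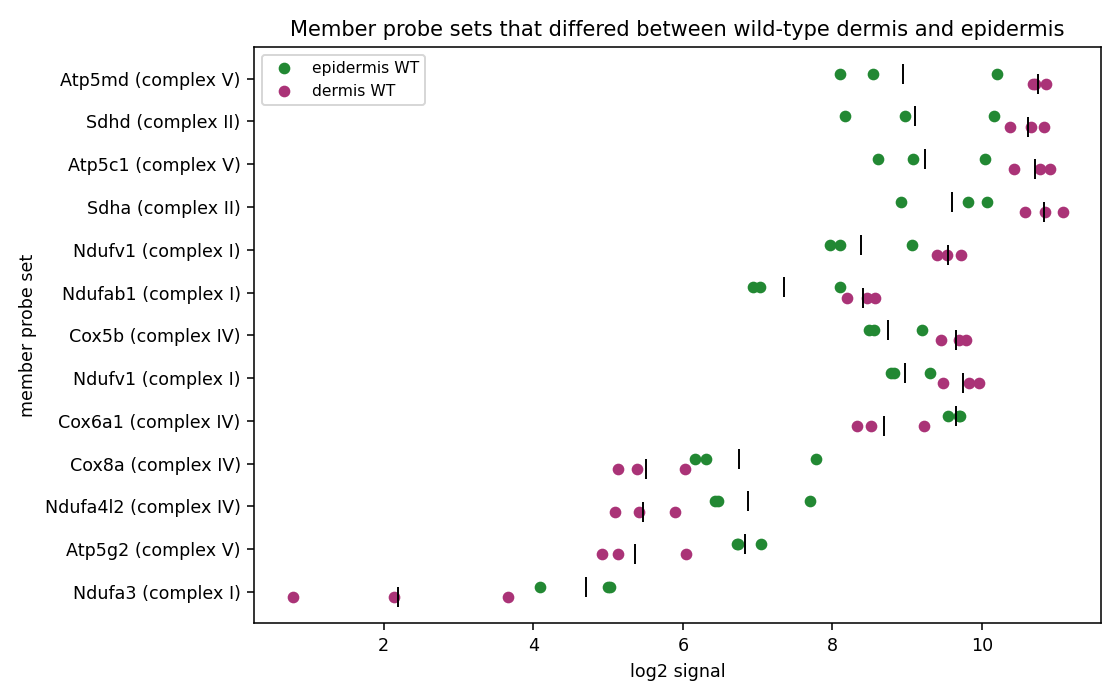
Log2 signal of the 13 member probe sets that differed between wild-type dermis and wild-type epidermis, each point an array (3 per group) and each black mark a group mean. The 8 upper probe sets are higher in dermis and the 5 lower ones higher in epidermis, and Ndufv1 appears with both of its called probe sets; in every row the groups do not overlap.

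Wild-type whole skin was also set against wild-type dermis. In limma 0 members were called, against a background of 0.00317%, and 33 had an unadjusted p under 0.05 (19.2%, against 19.9% of all probe sets). The median change was -0.02 for members and for all probe sets. Whole skin was apart from dermis for 33 members in the higher direction (19.2%, against 18.2%) and for 40 in the lower (23.3%, against 18.9%).

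The promoters of the members were searched for motifs of the factors known for these genes. The RefSeq windows (GRCm38.p6) reach from 250 bases before to 50 bases after the annotated start, and 78 of the 94 member genes had at least 1, giving 83 windows of 300 bases. Each motif was searched on both strands. The NRF1 motif (GCGCA, any base, then GCGC) was in 24.1% of member windows, against 6.38% of the windows of all protein-coding genes and 4.60% of all windows. The motif CCGGAAG, read by ETS factors such as GABPA, was in 26.5% of member windows, against 11.6% and 8.86%. The YY1 motif AAGATGGCG was in 8.43%, against 1.83% and 1.40%. At least 1 of these 3 motifs was in 50.6% of member windows, against 17.95% and 13.6%, where the median GC content was 59.0%, 56.3% and 52.7%.

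AAGGTCA, read by estrogen-related receptors such as Esrra, was in 9.64% of member windows, against 4.08% of coding and 4.72% of all windows. Shares near the background were found for the other two motifs. The NFY motif CCAAT was in 41.0%, against 38.2% and 37.4%. GTGGGAA, the motif of RBPJ, the DNA-binding partner of the Notch intracellular domain, was in 6.02% of member windows, against 6.07% and 6.38%. A match is a run of letters and not a bound site, and a window without a match says nothing about a factor elsewhere in the gene.

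Of the 13 member genes called in epidermis or between the layers, 11 had a window, and 5 of these held the NRF1 motif. Their stretches are shown because the same letters recur, sometimes repeatedly, close before the start of genes that were higher in dermis (Atp5c1, Sdhd and Sdha) and of genes with a probe set lower in dermis (Cox6a1 and Atp5g2). Each stretch is on the minus strand of the chromosome, is written 5′ to 3′ along the gene, and has the motif in capitals. They are Atp5c1 at chr2:10080433-10080479, Cox6a1 at chr5:115349036-115349150, Sdhd at chr9:50603889-50603958, Sdha at chr13:74350241-74350368 and Atp5g2 at chr15:102671050-102671119.
Atp5c1: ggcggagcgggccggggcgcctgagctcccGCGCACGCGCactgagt
Cox6a1: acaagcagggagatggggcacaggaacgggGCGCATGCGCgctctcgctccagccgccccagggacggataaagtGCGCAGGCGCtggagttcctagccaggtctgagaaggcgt
Sdhd: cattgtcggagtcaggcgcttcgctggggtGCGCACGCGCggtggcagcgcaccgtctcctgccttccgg
Sdha: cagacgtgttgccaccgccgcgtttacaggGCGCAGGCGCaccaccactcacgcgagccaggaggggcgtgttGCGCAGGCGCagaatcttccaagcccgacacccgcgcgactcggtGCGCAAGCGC
Atp5g2: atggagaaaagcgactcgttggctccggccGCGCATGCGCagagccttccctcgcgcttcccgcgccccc

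Sdha held 3 matches, Cox6a1 2, and each of the others 1. Another Atp5c1 window, from a different annotated start, held no match. The motif was present in genes of both directions. Only genes that hold it are shown, so whether it goes with the direction was not tested.

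**Figure D4:**
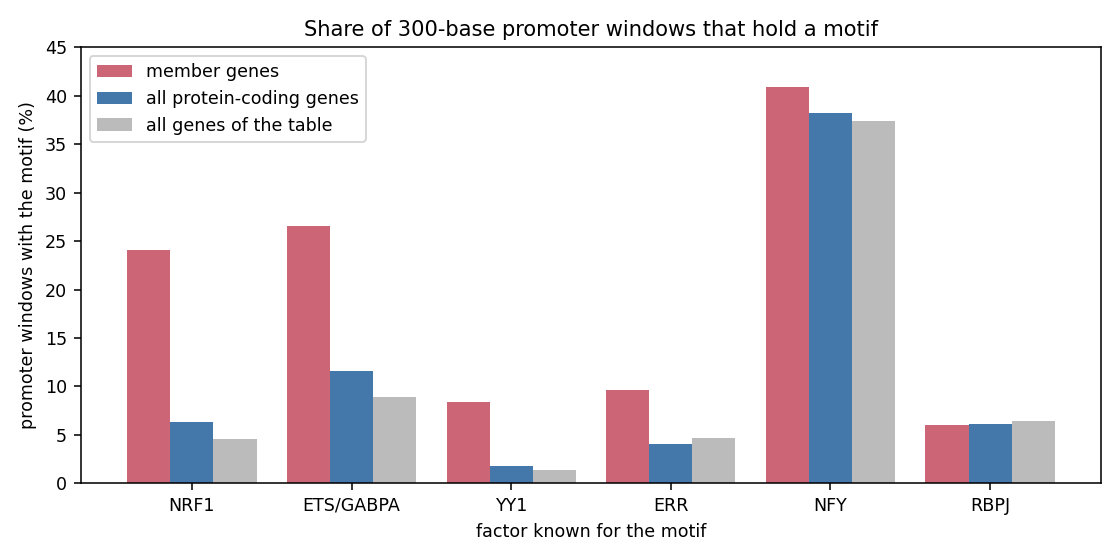
Share of 300-base promoter windows that hold each motif, in percent, for the 83 windows of member genes (red), the windows of all protein-coding genes (blue) and all windows of the table (grey). The NRF1 bar of the members stands at 24.1% against 6.38% of coding windows, while the RBPJ bars are near each other at 6.02% and 6.07%.

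Some subunits of complex IV exist in a general form and a heart and muscle form, and skin samples can include the thin muscle layer below the dermis. The median log2 signal of 16 skeletal muscle fibre genes, such as Acta1 and Ckm, ran from 4.35 to 10.08 over the 18 arrays. It was high and low within every tissue, in wild type reading 5.94, 8.81 and 7.52 in epidermis, 9.83, 5.09 and 5.32 in dermis, and 8.47, 4.89 and 9.89 for whole skin. Transgenic arrays spanned a like range, at 5.90, 6.06 and 8.97 in epidermis, 8.40, 10.08 and 4.35 in dermis and 7.19, 6.88 and 9.07 in whole skin.

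The muscle forms followed these genes from array to array. Cox7a1 read 7.14, 3.83 and 4.22 in wild-type dermis, 5.79, 6.32 and 2.84 in transgenic dermis, 5.004, 5.78 and 5.77 in wild-type epidermis and 3.03, 4.43 and 5.97 in transgenic epidermis. Over 18 arrays its correlation with the muscle list was r = 0.914 (Spearman rho 0.930; permutation p = 1e-05, the smallest that 100000 resamples can give, adjusted over 6 genes 6e-05). Without the 2 arrays farthest from the median of the muscle list, r was 0.895. Within the 6 arrays of epidermis, dermis and whole skin it was 0.790, 0.971 and 0.902.

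Cox8b, also known from brown fat, gave r = 0.814 (rho 0.781, permutation p = 9e-05, adjusted 0.00027), 0.751 without the 2 farthest arrays, and 0.849, 0.90 and 0.790 within epidermis, dermis and whole skin. Cox6a2 gave r = 0.605 (rho 0.643, permutation p = 0.00898, adjusted 0.018), 0.590 without the 2 farthest arrays, and 0.532, 0.738 and 0.873 within the tissues. These 3 genes held ranks 1 to 3 of the 172 members by this correlation, and the median member had r = 0.07. The general forms, each on its brightest probe set, did not follow the muscle list. Their r was 0.131 for Cox7a2 (permutation p = 0.604), 0.109 for Cox8a (p = 0.698) and -0.192 for Cox6a1 (p = 0.443). A dimmer Cox8a probe set, 1436409_at, gave r = 0.419, for which no permutation was run. The points share arrays and processing, and arrays of a tissue are not independent of its dissection.

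**Figure D5:**
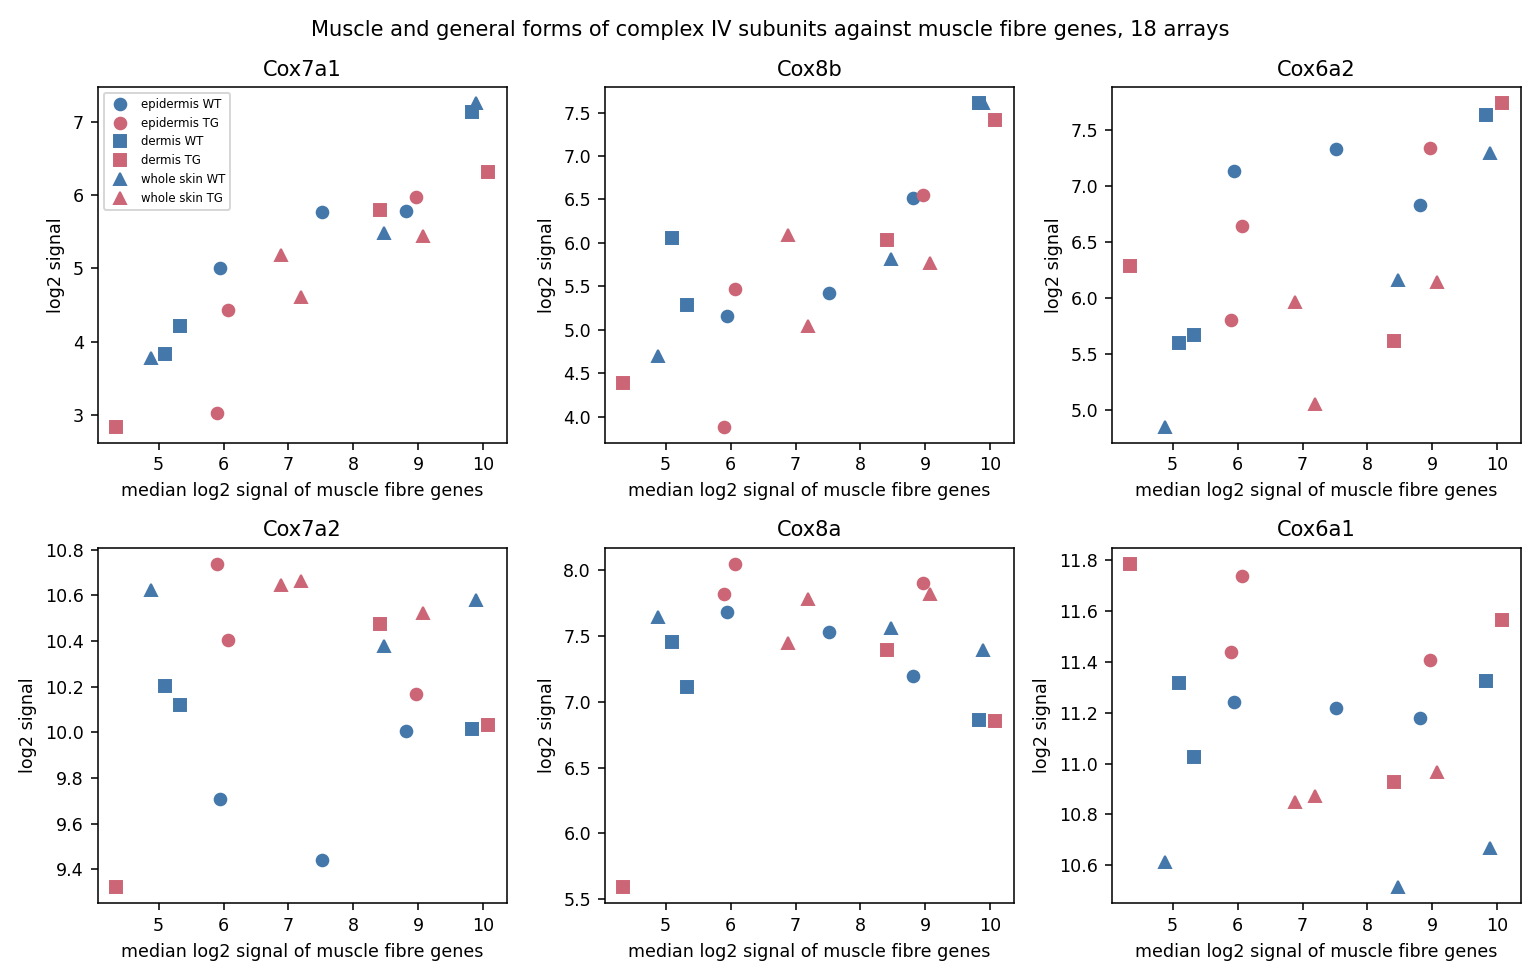
Log2 signal of muscle forms (upper row) and general forms (lower row) of 3 complex IV subunits against the median log2 signal of 16 muscle fibre genes, with a point for each of the 18 arrays, coloured by genotype and shaped by tissue. Cox7a1, Cox8b and Cox6a2 climb from left to right (r = 0.914, 0.814 and 0.605), while Cox7a2, Cox8a and Cox6a1 do not (0.131, 0.109 and -0.192).

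None of the muscle forms was called in a genotype comparison. For Cox7a1 the fitted change was -1.04 (SE 0.66) in epidermis, -0.08 (SE 1.03) in dermis and -0.42 (SE 0.69) in whole skin. In the same order of tissues the values were -0.40, -0.37 and -0.41 for Cox8b, and -0.50, 0.24 and -0.38 for Cox6a2. Their general counterparts did not pass in epidermis either. The 2 Cox7a2 probe sets had changes of 0.72 (adjusted p = 0.187) and 0.66 (adjusted p = 0.208), and those of Cox6a1 had 0.66 (adjusted p = 0.189) and 0.31 (adjusted p = 0.463); on each the transgenic arrays were apart and higher. Cox8a had 0.55, 0.46 and -0.48 on its 3 probe sets, with the groups apart for the second alone. Cox7a2l, a relative known to help join complexes III and IV, had 3 probe sets with changes of -0.07, -0.01 and 0.00 in epidermis.

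The remaining forms did not pass in a genotype comparison. Cox4i2, the lung form known to respond to oxygen, read 3.34, 1.17 and 2.55 in epidermis of wild-type mice and 5.16, 4.60 and 3.85 in their dermis (2.18, adjusted p = 0.0854). Cox6b2, known from testis, lay between 4.26 and 6.39 on all arrays, and Cox8c, also known from testis, between 2.72 and 5.19 on its tested probe set. The bright general subunits were Cox6b1 and Cox6c. Cox6b1 on probe set 1416565_at was apart and higher on the transgenic arrays both in epidermis (0.78, adjusted p = 0.117) and in whole skin (0.29, adjusted p = 0.239), and Cox6c on 1415970_at had a change of 1.39 in epidermis with overlapping groups (adjusted p = 0.174). Their second probe sets had 0.22 and 0.34 in epidermis.

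The 3 genes for the same c subunit of ATP synthase had separate patterns. In epidermis Atp5g1 read 6.68, 6.90 and 6.59 in wild type and 7.90, 8.11 and 7.57 in transgenic (1.14, adjusted p = 0.0712), and Atp5g3 read 10.30, 10.97 and 10.14 against 11.46, 11.55 and 11.14 (0.92, adjusted p = 0.131). Atp5g2 changed by 0.12 there, with overlapping groups. Between the wild-type layers, Atp5g2 was the one called, lower in dermis as given above, while Atp5g1 changed by -0.94 (adjusted p = 0.0862) and Atp5g3 by 0.63 (adjusted p = 0.131). The differences between these genes were not tested.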

How the data were processed

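Total RNA of 18 skin samples, 3 per group in 6 groups, was measured on Affymetrix arrays. The authors deposited log2 signals, processed with MAS5 per the submitters' processing notes (its version: not given in the sources used here). MAS5 spreads dim signals widely, and values ran from -7.52 to 14.42. The 2% trimmed linear mean was 98.9 to 99.5 on every array, as deposited. No 2 arrays were identical, and no background or detection values were used, so the number of arrays limits the precision.

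Probe sets were named by the platform annotation, and all 94 member genes matched RefSeq by gene ID. Probe sets above the 30th percentile of the mean were tested in R 4.3.3 with limma 3.58.1 (lmFit, eBayes with trend; Benjamini-Hochberg over all 31526, threshold 0.05). Genotypes were compared on the 6 arrays of a tissue; layers, their difference, and whole skin against dermis on 12 arrays with 4 group means. The fit was tested on simulated data. Called means past that threshold; groups are apart when their arrays do not overlap. A list gene is represented by its brightest probe set.

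The members, gene lists and tests were chosen with earlier results of these data known. Named were the 5 largest called changes in each direction whose groups were apart, 1 probe set of each core subunit, all probe sets of subunits with tissue forms, and up to 3 genes of a list by adjusted p; other genes were chosen after their values were seen. Cox7b, on that list of names, was not analysed here. Alternatives were all 18 arrays in a fit, quantile normalization, a common 75th percentile, 16 added on the linear scale, no filter, 1 probe set per gene, a replicate block and leaving out each array. Correlations used 100000 permutations.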

Additional observations from a re-analysis of the deposited data

Results flagged for a closer look

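A probe set of Ndufa3, an accessory subunit of complex I, moved in opposite directions in the separated layers. Probe set 1428464_at read 8.46, 9.14 and 8.65 in wild-type epidermis and 9.50, 9.32 and 9.27 in transgenic epidermis, a change of 0.61 (SE 0.25, adjusted p = 0.241). In dermis it read 9.18, 9.26 and 9.12 in wild type and 8.99, 9.04 and 8.68 in transgenic, a change of -0.28 (SE 0.25, adjusted p = 0.99). All transgenic arrays were above the wild-type arrays in epidermis and below them in dermis. The difference itself, -0.89 (95% interval -1.61 to -0.18), did not pass in limma (adjusted p = 0.651). The brightest Ndufa3 probe set, 1452790_x_at, changed by 0.88 in epidermis and by -0.25 in dermis, where its groups overlapped. The dim 1430149_at went the other way, by -0.36 in epidermis and 1.16 in dermis, with overlapping groups in both. How often other probe sets of the array were apart in opposite directions is not given here.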

How the results depend on the processing

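In epidermis 1 member was called; the count was 15 with all 18 arrays in the fit, 3 with a common 75th percentile, 4 with 16 added on the linear scale, 3 without the filter, 3 with 1 probe set per gene, 0 after quantile normalization, and 0 to 46 when an array was left out. Between the wild-type layers 13 were called; the count was 32 with all 18 arrays, 8 with 1 probe set per gene, and 0 to 31 when an array was left out. Replicate numbers did not pair the samples in every comparison. Same-numbered arrays correlated at -0.329 to 0.029 between the epidermis genotypes and -0.042 to 0.049 between the wild-type layers. Between the transgenic layers the range was 0.003 to 0.400, and between wild-type whole skin and wild-type dermis 0.045 to 0.253. The main tests took all arrays as unpaired. With the replicate block, 0 members were called in epidermis (Uqcrq at adjusted p = 0.109) and 21 between the layers. Leaving out an array gave 0 to 1 called in whole skin and 0 to 1 for the difference between layers. For all 18 arrays, and for arrays left out in epidermis and between layers, the share of all probe sets called is given above. The other counts of called members under alternatives stand without it. They show how the number moved, and not whether members were called more often than other probe sets. With 1 probe set per gene, the members whose first group was apart and higher numbered 34 in epidermis, 0 in dermis, 15 in whole skin, 23 between the layers and 14 for whole skin against dermis, since fewer probe sets were counted; 10.6, 3.91, 11.6, 23.2 and 16.6% of all genes did so. For whole skin against dermis the median member change was 0.089 after quantile normalization, -0.13 with a common 75th percentile and -0.13 with 1 probe set per gene, and -0.042 to 0.073 when an array was left out. The cause of the other shifts was not tested. The median member change in epidermis was 0.42 to 0.60 under the scalings and 0.39 to 0.59 when an array was left out, and its excess over the median of all probe sets was 0.42 after quantile normalization and 0.69 as deposited. Quantile normalization moved the median of all probe sets there from -0.20 to 0.00, and in dermis a common 75th percentile moved the member median from -0.08 to -0.02 and leaving out an array gave -0.19 to 0.01.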
